A study of Homo sapiens with 12 samples.

Results

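The comparison described here is TBZ against DMSO in HT-29 cells depleted of MLKL, taken 5 h after TBZ was added. It rests on 4 of the 12 libraries of the series, chosen by their labels: 2 of shMLKL cells given TBZ for 5 h and 2 of shMLKL cells given DMSO. HT-29 is a human colorectal adenocarcinoma line. TBZ is a mixture of the cytokine TNFα (20 ng/mL), BV6 (2 µM), an antagonist of inhibitor of apoptosis proteins, and the caspase inhibitor zVAD-fmk (30 µM). Both shMLKL groups share the MLKL knockdown, which was delivered by lentivirus; whether the cells were 1 clone or a pool, and how long the DMSO cells were kept, is not given in the labels. Set beside them are 2 libraries of shGFP cells after 5 h of TBZ and 2 of shGFP cells under DMSO. From an earlier experiment, 1 library of shMLKL cells after 12 h of TBZ and 1 of shMLKL cells under DMSO were also used. Whether the 2 libraries of a group stem from separate cultures is not given in the labels; the p-values therefore reflect the spread between libraries, and that spread may be technical.

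TNF bound to its receptor TNFR1 assembles a membrane complex of adaptors, the kinase RIPK1 and ubiquitin ligases, among them the inhibitor of apoptosis proteins. Ubiquitin chains in that complex recruit the kinases that release NF-κB from its IκB inhibitors and activate MAP kinases, and NF-κB in turn induces its own inhibitors. Where the ligases are lost and caspases are blocked, RIPK1 can engage RIPK3, which phosphorylates MLKL, and MLKL then permeabilises the plasma membrane in necroptosis. Cells short of MLKL carry the upstream pathway without this final step.

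MLKL, the target of the knockdown, was measured at 0.651 and 0.395 FPKM in shMLKL cells under TBZ and 0.606 and 0.545 FPKM in shMLKL cells under DMSO, against 1.98 and 2.03 FPKM in shGFP cells under TBZ and 3.95 and 3.89 FPKM in shGFP cells under DMSO. Every shMLKL library lay below every shGFP library, and the log2 difference between the lines was −0.99 under TBZ (adjusted p = 0.00015) and −1.64 under DMSO (adjusted p = 9.9e-06). Within the shMLKL line TBZ did not move MLKL beyond the replicate spread (log2 change −0.05 ± 0.10 SE, adjusted p = 0.698). The files gave depth only in relative terms, 82.9 to 84.7% of the deepest library for shMLKL cells under TBZ and 90.1 to 95.3% for shMLKL cells under DMSO. Of 12 epithelial markers 7 averaged 1 FPKM or more in shMLKL cells under TBZ and 10 did in shMLKL cells under DMSO; EPCAM averaged 354 FPKM in the TBZ libraries and 389 FPKM in the DMSO libraries, whereas CDX2 did not pass 0.0628 FPKM in a library of this line. KRT8 and KRT18 were listed at 0 in both TBZ libraries and in 1 DMSO library, and at 694 and 535 FPKM in the other DMSO library. Of 13 leukocyte markers 2, LYZ and CD68, averaged 1 FPKM or more in either group; the summed level was 604 to 644 FPKM under TBZ and 612 to 663 FPKM under DMSO, nearly all of it LYZ, and PTPRC did not pass 0.0279 FPKM. The 13 markers of fibroblasts and endothelium summed to 0.911 to 1.02 FPKM under TBZ and 0.884 to 1.37 FPKM under DMSO.

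Of 10364 genes tested on the log2(FPKM + 1) scale, 2070 rose with TBZ (20% of those tested) and 1821 fell (17.6%). A rise or fall here is a two-sided limma test with a Benjamini-Hochberg adjusted p under 0.05. The change was at least 1 on the log2 scale for 218 of the genes that rose and for 78 of those that fell. Most called changes were small: 2742 of the called genes moved by less than 0.5, and the median size over called genes was 0.36. The median over all tested genes was 0.00. TBZ and DMSO libraries did not overlap for 3891 called genes, and for 7121 of the 10364 tested genes. The 218 genes had a median of 3.15 FPKM under DMSO, the 78 genes one of 9.03 FPKM, and all tested genes one of 7.26 FPKM. The genes nearest the expression filter, a mean of 1 FPKM in at least 1 group, were ABHD16A and ACADSB just inside it and RAB26 and ANKRD36C just outside it. Of the tested members of the gene lists described here, 28 averaged under 1 FPKM in both DMSO groups and passed only through a TBZ group, which bears on the share of a list that rose.

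**Figure D1:**
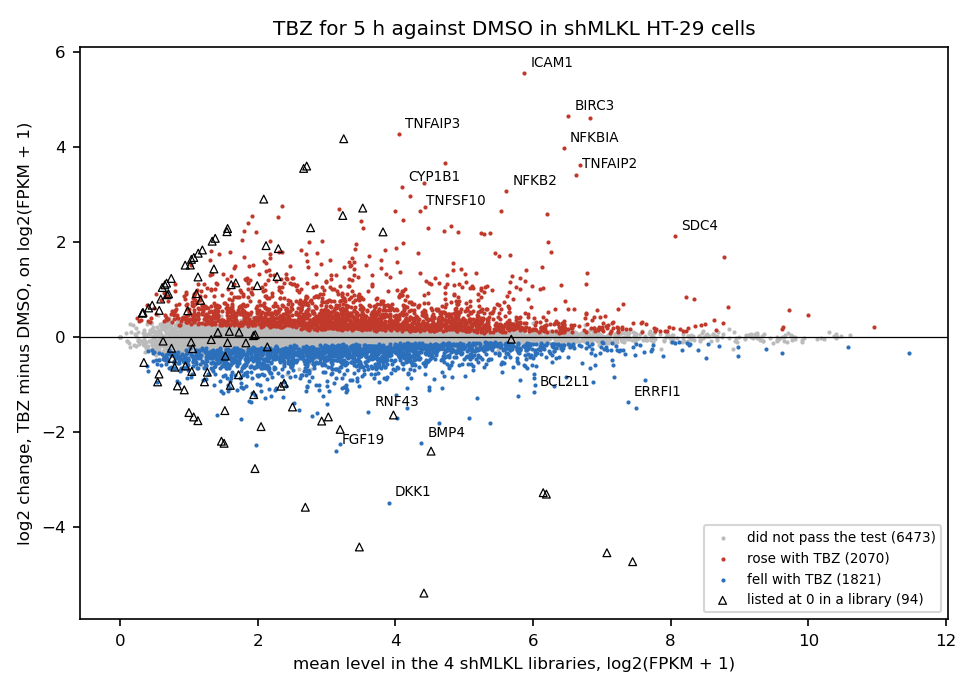
Log2 change of each tested gene in shMLKL cells (TBZ minus DMSO, vertical axis) against its mean level in the 4 shMLKL libraries (log2(FPKM + 1), horizontal axis). Red points rose, blue points fell and grey points did not pass the test; genes listed at 0 in a library while at 1 FPKM or more in another are drawn as open triangles, and the 218 rises of at least 1 outnumber the 78 falls of that size.

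An exact 0 in this table can be a failed estimate, since KRT8 and KRT18 also stand at 0. Among tested genes, 94 were listed at 0 in an shMLKL library and at 1 FPKM or more in another, and 28 of these were called, 19 of them higher by at least 1 and 9 lower by at least 1. They include genes that rank among the extremes by size. FAM118B was listed at 17.7 and 16.4 FPKM under TBZ and at 0 in both DMSO libraries, DNAJB4 at 10.7 and 11.5 FPKM and at 0, and LYRM5 at 9.99 and 11.4 FPKM and at 0. In the other direction, MGAT4B was listed at 0 in both TBZ libraries and at 40.4 and 41.0 FPKM under DMSO, TMEM243 at 0 and at 20.1 and 20.5 FPKM, RAD17 at 0 and at 11.3 and 10.6 FPKM, and ACOT13 at 0 and at 5.68 and 5.90 FPKM. No fold change is given for them. Without these 94 genes 2051 genes rose and 1812 fell.

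The 5 largest rises, genes listed at 0 and genes under 5 FPKM aside, were those of ICAM1, BIRC3, CXCL8, TNFAIP3 and NFKBIA. ICAM1, the adhesion molecule that binds leukocyte integrins (hg19 chr19:10381517-10397291, plus strand), reached 115 and 112 FPKM in TBZ cells, against 1.71 and 1.19 FPKM in DMSO cells. BIRC3, an inhibitor of apoptosis protein and ubiquitin ligase of the TNFR1 complex (hg19 chr11:102188181-102210135, plus strand), reached 171 and 177 FPKM in TBZ cells, against 5.79 and 6.20 FPKM in DMSO cells. TNFAIP3, which encodes the ubiquitin-editing enzyme A20 (hg19 chr6:138188325-138204451, plus strand), reached 30.9 and 30.0 FPKM in TBZ cells, against 0.732 and 0.535 FPKM in DMSO cells. It averaged under 1 FPKM in both DMSO groups and so passed the filter only through a TBZ group. For all 3 genes the TBZ libraries were far above the DMSO libraries and close to each other. The log2 change was 5.55 ± 0.09 SE for ICAM1 (adjusted p = 3.2e-08), 4.65 ± 0.05 for BIRC3 (adjusted p = 5.6e-09) and 4.27 ± 0.10 for TNFAIP3 (adjusted p = 2e-07). NFKBIA, which encodes IκBα (hg19 chr14:35870716-35873960, minus strand), stood at 161 and 165 FPKM in TBZ cells and 9.88 and 9.08 FPKM in DMSO cells, a log2 change of 3.97 ± 0.04 (adjusted p = 5e-09). NFKB2, the precursor of the p52 subunit (hg19 chr10:104153867-104162286, plus strand), stood at 86.7 and 86.1 FPKM in TBZ cells and 9.14 and 9.66 FPKM in DMSO cells, a log2 change of 3.07 ± 0.04 (adjusted p = 1.1e-08). For NFKBIA and NFKB2 too the libraries of a group lay close together beside the distance between groups.

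**Figure D2:**
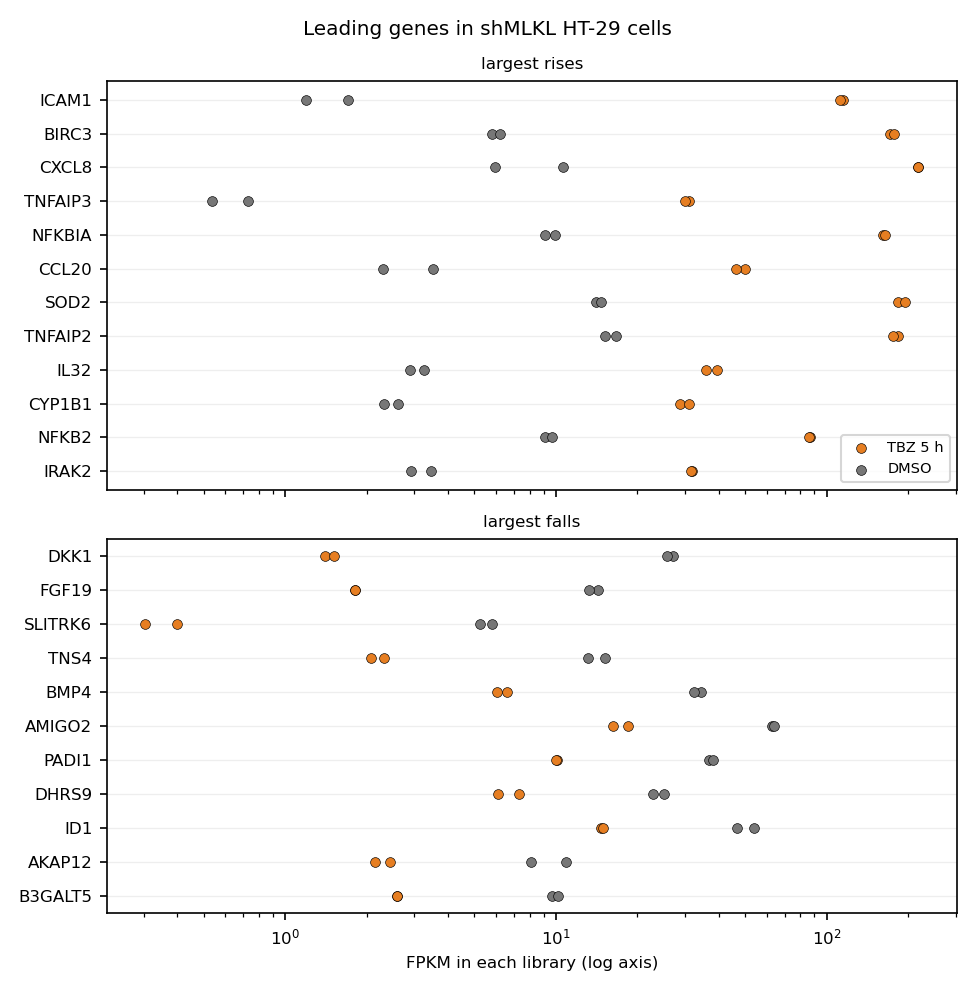
FPKM of leading genes in each shMLKL library on a log axis, the largest rises in the upper panel and the largest falls in the lower panel, leaving out genes listed at 0. Orange points are the 2 TBZ libraries and grey points the 2 DMSO libraries. Only genes whose groups did not overlap were drawn, a condition that 7121 of the 10364 tested genes met. The log2 changes run from 5.55 for ICAM1 to −3.48 for DKK1.

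Of 12 NF-κB subunits and IκB proteins tested, 11 rose and none fell, with a median log2 change of 1.83; over all tested genes 20% rose. NFKBIE, which encodes IκBε, reached 13.8 and 15.5 FPKM in TBZ cells, against 1.20 and 1.63 FPKM in DMSO cells (log2 change 2.70). RELB, the partner of p52, reached 41.5 and 42.9 FPKM in TBZ cells, against 8.29 and 8.01 FPKM in DMSO cells (log2 change 2.24). Of 32 members of the TNF receptor complex and its ubiquitin editors, 19 rose, 2 fell and 11 did not pass the test, with a median log2 change of 0.31; 2 of the 32 are listed at 0 in an shMLKL library, and without them the counts of rises and falls are still 19 and 2. The 2 falls, of TNFRSF1A and TAB2, became 1 without the first DMSO library and 0 without the second. Of the 32, 3 averaged under 1 FPKM in both DMSO groups and passed the filter only through a TBZ group. They include 2 of the rises, TNFAIP3 being 1 of these. Of the other 29 genes 17 rose and 2 fell. Besides BIRC3 and TNFAIP3, the largest rises in this list were those of TNFAIP2, a TNF-induced protein, and TNIP1, an A20-binding adaptor. TNFAIP2 stood at 183 and 176 FPKM in TBZ cells and 15.1 and 16.7 FPKM in DMSO cells (log2 change 3.42), and TNIP1 at 125 and 127 FPKM in TBZ cells and 18.8 and 21.2 FPKM in DMSO cells (log2 change 2.60). IRAK2, a kinase of interleukin-1 and Toll-like receptor signalling, rose to 31.9 and 31.6 FPKM in TBZ cells, against 3.45 and 2.91 FPKM in DMSO cells. SOD2, the mitochondrial superoxide dismutase, rose to 184 and 195 FPKM in TBZ cells, against 14.02 and 14.70 FPKM in DMSO cells.

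The receptor TNFRSF1A, the kinases RIPK1 and RIPK3, FADD, CASP8, CFLAR, BIRC2 and XIAP each changed by less than 1 on the log2 scale, and CYLD by more. TNFRSF1A, the receptor itself, had 20.0 and 20.5 FPKM in TBZ cells and 24.7 and 23.8 FPKM in DMSO cells, a log2 change of −0.25 ± 0.07 (adjusted p = 0.0302); the call was lost without any 1 of the 4 shMLKL libraries (adjusted p = 0.112, 0.0877, 0.133 and 0.0758) and with no filter on low values (adjusted p = 0.0609). RIPK1 had 11.5 and 11.5 FPKM in TBZ cells and 8.66 and 9.07 FPKM in DMSO cells (log2 change 0.34 ± 0.05, adjusted p = 0.00236). CYLD, a deubiquitinase that acts on RIPK1, moved further, to 8.92 and 8.95 FPKM in TBZ cells against 2.15 and 2.39 FPKM in DMSO cells (log2 change 1.61 ± 0.07, adjusted p = 3.1e-06). BIRC2, the inhibitor of apoptosis protein related to BIRC3 that BV6 also targets, had 43.3 and 44.0 FPKM in TBZ cells and 29.2 and 29.5 FPKM in DMSO cells, and XIAP had 17.2 and 16.8 FPKM in TBZ cells and 14.7 and 14.3 FPKM in DMSO cells. Both rose (log2 changes 0.56 and 0.22). TRADD, the receptor's adaptor, lay below the expression filter. CFLAR, the caspase-8 inhibitor cFLIP, rose to 56.5 and 60.1 FPKM in TBZ cells, against 39.3 and 41.2 FPKM in DMSO cells (log2 change 0.52). CASP8 (log2 change 0.16, adjusted p = 0.0869) and RIPK3 (log2 change −0.30, adjusted p = 0.0681) did not pass the test; CASP8 passed it without the first TBZ library (adjusted p = 0.0425), and RIPK3 without either shGFP DMSO library (adjusted p = 0.0357 and 0.0353). FADD, the adaptor of caspase-8, had 10.01 and 8.54 FPKM in TBZ cells and 12.5 and 12.2 FPKM in DMSO cells (log2 change −0.38, adjusted p = 0.0198), a call lost without either DMSO library or without the second TBZ library (adjusted p = 0.0899, 0.0698 and 0.112).

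The promoters of leading members show how NF-κB spellings are spread over them. Of the 218 genes that rose by at least 1, 170 had a promoter in the RefSeq table (build GRCh38.p14, 250 bases before to 50 after the start site). The letters GGANNTTCC, searched on both strands, stood in 17.6% of these 170 promoters, in 4.76% of the 63 promoters of genes that fell by at least 1 and in 4.64% of the 8562 promoters of all tested genes. A wider spelling, GGANNTCCC, was added after the sequences had been seen; it stood in 12.4, 1.59 and 5.49% of the same 3 sets. An interferon response spelling, GAAANNGAA, stood in 12.4, 1.59 and 6.55%, an AP-1 spelling, TGANTCA, in 10.6, 11.1 and 4.39%, and a CRE spelling, TGACGTCA, in 1.18, 1.59 and 3.49%. The 2 NF-κB spellings, and the AP-1 and CRE spellings, can overlap in a sequence. The following 4 promoters, 5′ to 3′ on the gene's strand, are shown because they carry these matches, which are in capitals; they lie at chr11:102317234-102317533 (plus strand, BIRC3), chr6:137867009-137867308 (plus strand, TNFAIP3), chr14:35404700-35404999 (minus strand, NFKBIA) and chr1:89065159-89065458 (minus strand, GBP1).
BIRC3: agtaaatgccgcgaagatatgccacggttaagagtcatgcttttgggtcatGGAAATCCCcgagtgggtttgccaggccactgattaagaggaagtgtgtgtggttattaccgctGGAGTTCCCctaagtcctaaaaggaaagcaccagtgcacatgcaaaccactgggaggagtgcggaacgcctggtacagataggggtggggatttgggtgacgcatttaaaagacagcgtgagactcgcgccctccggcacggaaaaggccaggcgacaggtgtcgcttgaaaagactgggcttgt
TNFAIP3: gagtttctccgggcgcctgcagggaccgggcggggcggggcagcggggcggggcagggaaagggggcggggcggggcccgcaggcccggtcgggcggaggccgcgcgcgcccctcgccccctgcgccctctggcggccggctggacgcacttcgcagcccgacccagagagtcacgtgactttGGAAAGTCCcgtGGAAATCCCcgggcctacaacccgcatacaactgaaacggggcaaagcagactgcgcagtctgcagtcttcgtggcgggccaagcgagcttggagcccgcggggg
NFKBIA: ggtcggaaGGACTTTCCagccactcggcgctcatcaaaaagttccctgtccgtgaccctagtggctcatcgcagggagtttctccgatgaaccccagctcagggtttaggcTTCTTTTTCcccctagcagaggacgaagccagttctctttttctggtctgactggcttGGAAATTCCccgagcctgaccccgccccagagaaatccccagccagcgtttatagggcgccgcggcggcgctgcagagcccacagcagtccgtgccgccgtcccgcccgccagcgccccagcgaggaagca
GBP1: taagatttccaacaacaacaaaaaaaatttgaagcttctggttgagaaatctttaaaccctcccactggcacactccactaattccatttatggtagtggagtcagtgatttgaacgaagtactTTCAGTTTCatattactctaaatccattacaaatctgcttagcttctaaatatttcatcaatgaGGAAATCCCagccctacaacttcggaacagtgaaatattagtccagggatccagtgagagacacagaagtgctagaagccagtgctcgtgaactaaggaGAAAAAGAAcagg
Counted from the start site, BIRC3 had the wider NF-κB spelling at −199 and −135, and TNFAIP3 had GGANNTTCC at −67 and the wider spelling at −55. NFKBIA had GGANNTTCC at −242 and −81 and the interferon spelling at −139. GBP1, an interferon-induced GTPase, had the interferon spelling at −126 and at 37 and the wider NF-κB spelling at −62. The promoters of TNFAIP2, NFKB2, IRF1 and EGR1 held none of these letters in this window. A match is a description of the sequence only.

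Chemokines had the highest median of the lists. Of 12 tested, 10 rose, none fell and 2 did not pass the test, with a median log2 change of 2.12. Over all tested genes 20% rose and 17.6% fell. Of the 12, 1 averaged under 1 FPKM in both DMSO groups and passed the filter only through a TBZ group. Among the remaining 11 genes 9 rose. The other 7 of the 19 listed lay below the filter. Without the second DMSO library or the first TBZ library 1 chemokine fell. CXCL8, which encodes the neutrophil attractant interleukin-8, had 218 and 218 FPKM in TBZ cells and 10.6 and 5.94 FPKM in DMSO cells. CXCL2 had 78.4 and 79.3 FPKM in TBZ cells and 12.1 and 11.5 FPKM in DMSO cells, and CXCL1, like CXCL2 a ligand of CXCR2, had 26.9 and 26.3 FPKM in TBZ cells and 3.73 and 3.07 FPKM in DMSO cells. CCL20, which attracts CCR6-bearing cells, had 49.7 and 46.1 FPKM in TBZ cells and 3.52 and 2.30 FPKM in DMSO cells. All 4 were higher in both TBZ libraries than in either DMSO library, with log2 changes of 4.61 ± 0.20, 2.64 ± 0.04, 2.65 ± 0.07 and 3.66 ± 0.17 (adjusted p = 3e-06, 3.2e-08, 2.4e-07 and 5e-06). The DMSO libraries differed most for CXCL8 and CCL20, the lower one being the second in both cases. CXCL10, an interferon-inducible attractant of T cells, had 10.7 and 11.9 FPKM in TBZ cells and 2.21 and 1.86 FPKM in DMSO cells (log2 change 2.02, adjusted p = 1.7e-06).

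Among cytokines and colony-stimulating factors 10 of 14 tested rose and 1 fell, against 20% and 17.6% of all tested genes. Another 13 lay below the filter. Of the 14, 8 averaged under 1 FPKM in both DMSO groups and so passed the filter only through a TBZ group, 6 of them among the rises; of the other 6 genes, 4 rose and 1 fell. IL32, a proinflammatory cytokine, rose to 35.9 and 39.3 FPKM in TBZ cells, against 2.88 and 3.26 FPKM in DMSO cells (log2 change 3.24). CSF2, which encodes GM-CSF, rose to 8.81 and 7.10 FPKM in TBZ cells, against 0.429 and 0.203 FPKM in DMSO cells, and IL23A, the p19 subunit of interleukin-23, to 3.96 and 5.56 FPKM in TBZ cells, against 0.222 and 0.210 FPKM in DMSO cells. These genes were near 0 under DMSO, and the pseudocount of 1 makes their log2 changes of 2.77 and 2.23 understatements of the ratio. The type III interferon IFNL1 stood at 2.34 and 2.90 FPKM in TBZ cells and 0.477 and 0.812 FPKM in DMSO cells (log2 change 1.14, adjusted p = 0.00201). IL1RN, the interleukin-1 receptor antagonist, was the member that fell, to 8.87 and 7.33 FPKM in TBZ cells against 12.5 and 11.0 FPKM in DMSO cells (log2 change −0.49, adjusted p = 0.00433).

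Of 19 tested genes of surface proteins by which a cell meets immune cells, 13 rose and 2 fell, with a median log2 change of 0.66. Over all tested genes 20% rose. Of the 19, 4 averaged under 1 FPKM in both DMSO groups, CD83 among them, and passed the filter only through a TBZ group. These 4 include 2 of the rises, and of the other 15 genes 11 rose and 2 fell. After ICAM1 the largest rises were CD83, SDC4 and F3. SDC4, a heparan sulfate proteoglycan, was by far the most abundant of them, with 433 and 433 FPKM in TBZ cells and 96.1 and 100.4 FPKM in DMSO cells (log2 change 2.13). F3, which encodes tissue factor, had 8.35 and 8.95 FPKM in TBZ cells and 1.61 and 1.79 FPKM in DMSO cells, and CD83 had 5.48 and 4.74 FPKM in TBZ cells and 0.0885 and 0.223 FPKM in DMSO cells. PVR, a ligand of the receptors DNAM-1 and TIGIT, fell to 47.9 and 48.3 FPKM in TBZ cells, against 60.3 and 60.9 FPKM in DMSO cells (log2 change −0.33, adjusted p = 0.00138). The other fall, of CD44, was lost in 6 of the alternatives, among them those without any 1 of the 4 shMLKL libraries (adjusted p = 0.124, 0.0576, 0.139 and 0.0532).

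Interferon-stimulated genes rose widely, where 20% of all tested genes rose and 17.6% fell, but by less than the chemokines. Of 47 tested, 37 rose and 9 did not pass the test, with a median log2 change of 0.51; the 1 fall, of LGALS3BP (log2 change −0.14, adjusted p = 0.0445), was lost without any 1 of the 4 shMLKL libraries and without either shGFP TBZ library (adjusted p = 0.0578, 0.192, 0.198, 0.0636, 0.0549 and 0.0544), and likewise with no filter, no trend or the shMLKL libraries only. GBP1 had 7.14 and 7.51 FPKM in TBZ cells and 0.436 and 0.463 FPKM in DMSO cells. Its relative GBP4 had 3.82 and 3.58 FPKM in TBZ cells and 0.365 and 0.335 FPKM in DMSO cells. GBP4 averaged under 1 FPKM in both DMSO groups and passed the filter only through a TBZ group. Of the other 46 genes of the list 36 rose and 1 fell. IRF1, a transcription factor induced by both TNF and interferon, had 61.5 and 64.6 FPKM in TBZ cells and 13.8 and 12.8 FPKM in DMSO cells. IFIH1, which encodes the RNA sensor MDA5, had 66.6 and 66.2 FPKM in TBZ cells and 18.9 and 18.8 FPKM in DMSO cells. The 2 libraries of each group agreed closely, and the log2 changes were 2.52 for GBP1, 1.80 for GBP4, 2.16 for IRF1 and 1.76 for IFIH1. Of 18 tested genes of MHC class I antigen presentation, 16 rose and none fell (median log2 change 0.44). TAP1 averaged under 1 FPKM in both DMSO groups and passed the filter only through a TBZ group. Of the other 17 genes 15 rose. TAPBP, the chaperone tapasin, had 11.5 and 11.6 FPKM in TBZ cells and 3.97 and 4.15 FPKM in DMSO cells, and the peptide transporter subunit TAP1 had 2.68 and 2.51 FPKM in TBZ cells and 0.495 and 0.387 FPKM in DMSO cells. HLA-B had 4.69 and 3.93 FPKM in TBZ cells and 0.551 and 0.771 FPKM in DMSO cells; these genes of the MHC region stand on several lines of the table, so their levels are uncertain, and with the lines summed all 16 rises held.

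Immediate early genes, not all of them transcription factors, rose at 20 of 27 tested, with a median log2 change of 0.58, and 3 fell. Fewer falls were called without the second DMSO library or the first TBZ library. Of the 27, 2 averaged under 1 FPKM in both DMSO groups and passed the filter only through a TBZ group. They include 1 of the rises. Of the other 25 genes 19 rose and 3 fell, against 20% and 17.6% of all tested genes. EGR1 had 28.99 and 27.5 FPKM in TBZ cells and 3.97 and 4.67 FPKM in DMSO cells (log2 change 2.46). The AP-1 subunits FOSL1 and JUN had 113 and 123 FPKM and 103 and 101 FPKM in TBZ cells, against 33.5 and 33.8 FPKM and 36.9 and 35.7 FPKM in DMSO cells (log2 changes 1.78 and 1.47). BTG2, an antiproliferative gene, had 9.51 and 9.89 FPKM in TBZ cells and 1.88 and 1.45 FPKM in DMSO cells. MAFK, a small MAF protein, fell to 7.20 and 6.54 FPKM in TBZ cells, against 9.01 and 9.42 FPKM in DMSO cells (log2 change −0.38). Of 10 Krüppel-like factors 3 rose and 3 fell (30% each, against 20% and 17.6% of all tested genes). KLF10 rose to 77.5 and 77.4 FPKM in TBZ cells, against 21.9 and 23.3 FPKM in DMSO cells, and KLF13 fell to 4.68 and 4.41 FPKM in TBZ cells, against 9.48 and 9.67 FPKM in DMSO cells (log2 changes 1.73 and −0.93).

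Feedback on MAP kinase and EGF receptor signalling moved in both directions. Over all tested genes 20% rose and 17.6% fell. Of 16 MAP kinase phosphatases, Sprouty and SPRED genes, 8 rose and 4 fell. DUSP10, a phosphatase of JNK and p38, rose to 4.36 and 4.00 FPKM in TBZ cells, against 1.21 and 1.28 FPKM in DMSO cells, and DUSP1 to 17.5 and 16.7 FPKM in TBZ cells, against 10.6 and 11.7 FPKM in DMSO cells. DUSP4, a phosphatase of ERK, fell to 3.30 and 3.49 FPKM in TBZ cells, against 10.1 and 11.4 FPKM in DMSO cells (log2 change −1.41, adjusted p = 1.1e-05), and SPRY1 to 2.00 and 1.73 FPKM in TBZ cells, against 5.54 and 4.66 FPKM in DMSO cells (log2 change −1.09, adjusted p = 0.0002). Of 12 EGF receptor genes 4 rose and 4 fell, the rises being 2 without the first DMSO library or the second TBZ library. The receptor EGFR had 49.9 and 52.4 FPKM in TBZ cells and 31.8 and 34.8 FPKM in DMSO cells (log2 change 0.61), and its ligand TGFA had 47.9 and 45.5 FPKM in TBZ cells and 23.5 and 25.5 FPKM in DMSO cells (log2 change 0.91). ERRFI1, an inhibitor of the EGF receptor, fell to 89.6 and 93.7 FPKM in TBZ cells, against 238 and 238 FPKM in DMSO cells, a log2 change of −1.37 ± 0.05 (adjusted p = 1.9e-06), and ERBB3 fell to 14.3 and 14.2 FPKM in TBZ cells, against 20.2 and 20.6 FPKM in DMSO cells.

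Death ligands, their receptors and the BCL2 family had both rises and falls. The shares that fell were 22.2% of death receptors and ligands, 20.8% of the BCL2 family and caspases and 20% of necrosome genes. These lay near the 17.6% of all tested genes that fell. The shares that rose were 55.6%, 45.8% and 40%, against 20% of all tested genes. TNFSF10, which encodes the death ligand TRAIL, had 34.1 and 34.8 FPKM in TBZ cells and 4.95 and 4.36 FPKM in DMSO cells, a log2 change of 2.65 ± 0.06 (adjusted p = 1.3e-07). Its receptor TNFRSF10B had 87.1 and 85.1 FPKM in TBZ cells and 31.6 and 31.5 FPKM in DMSO cells (log2 change 1.42). The lymphotoxin β receptor LTBR fell to 16.4 and 17.2 FPKM in TBZ cells, against 24.8 and 25.3 FPKM in DMSO cells (log2 change −0.55). Over the 9 tested members 5 rose and 2 fell. Fewer falls were called without the second DMSO library, the second TBZ library or the first shGFP TBZ library. Of the 9, 1 averaged under 1 FPKM in both DMSO groups and passed the filter only through a TBZ group. Among the other 8 genes 4 rose and 2 fell. Among 24 BCL2 family members and caspases 11 rose and 5 fell, the falls being between 2 and 3 without any 1 of the 4 shMLKL libraries. The BH3-only genes BBC3 and PMAIP1, which encode PUMA and NOXA, had 30.8 and 29.4 FPKM and 29.7 and 31.1 FPKM in TBZ cells, against 8.33 and 7.91 FPKM and 14.8 and 12.3 FPKM in DMSO cells (log2 changes 1.77 and 1.11). BID had 22.1 and 20.7 FPKM in TBZ cells and 12.2 and 11.9 FPKM in DMSO cells. BCL2L1, which encodes the survival protein BCL-XL, fell to 38.2 and 39.4 FPKM in TBZ cells, against 88.4 and 87.8 FPKM in DMSO cells, a log2 change of −1.16 ± 0.03 (adjusted p = 3.3e-07). CASP2 fell to 4.57 and 4.76 FPKM in TBZ cells, against 7.58 and 7.25 FPKM in DMSO cells (log2 change −0.57). Of 15 necrosome genes tested 6 rose and 3 fell, and the largest rise was that of CASP10, to 4.62 and 4.65 FPKM in TBZ cells against 2.32 and 2.07 FPKM in DMSO cells; without either DMSO library or without the second TBZ library the falls numbered 1.

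**Figure D3:**
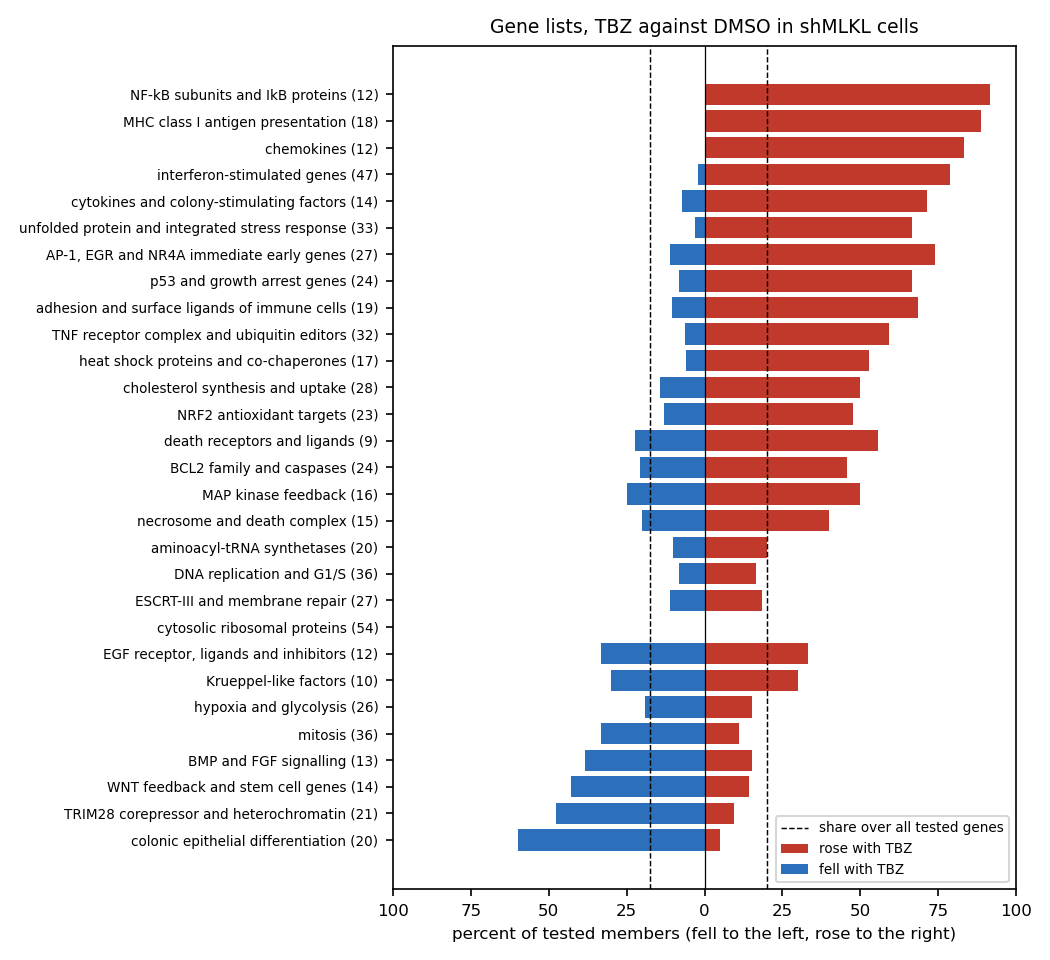
Percent of the tested members of each gene list that rose (red, to the right) or fell (blue, to the left) with TBZ in shMLKL cells, with the number tested in parentheses. Dashed lines mark the share over all tested genes, 20% higher and 17.6% lower; NF-κB, MHC class I and chemokine genes reach furthest to the right, and colonic differentiation genes furthest to the left.

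Each of the stress pathways listed had more rises than falls. Of 33 genes of the unfolded protein and integrated stress responses 22 rose and 1 fell, with a median log2 change of 0.24. PPP1R15A, the stress-induced phosphatase subunit GADD34, had 370.1 and 394 FPKM in TBZ cells and 204 and 220.1 FPKM in DMSO cells (log2 change 0.85). ERN1, which encodes the sensor IRE1α, had 22.1 and 22.3 FPKM in TBZ cells and 11.2 and 12.3 FPKM in DMSO cells (log2 change 0.87). TRIB3, a pseudokinase induced by ATF4, was the member that fell, to 174 and 173 FPKM in TBZ cells against 216 and 215 FPKM in DMSO cells (log2 change −0.31). The aminoacyl-tRNA synthetases, many of them targets of the same response, had 4 rises and 2 falls among 20 (20% and 10%, against 20% and 17.6% of all tested genes), with a median of 0.01; the 4 rises became 2 in a fit of the shMLKL libraries only, and the 2 falls became 4 with library medians set equal. Of 23 antioxidant targets of NRF2, 11 rose and 3 fell. SQSTM1, the autophagy receptor p62, had 686 and 652 FPKM in TBZ cells and 209 and 207 FPKM in DMSO cells (log2 change 1.68), and TXNRD1, thioredoxin reductase, had 405 and 418 FPKM in TBZ cells and 231 and 237 FPKM in DMSO cells (log2 change 0.81). FTH1, the ferritin heavy chain, fell to 2544 and 2453 FPKM in TBZ cells, against 3092 and 3163 FPKM in DMSO cells (log2 change −0.32). Under quantile normalization this change was 0. That method gives a gene of unchanged rank the same value in each library, so it cannot test this fall. Of 24 p53 and growth arrest genes 16 rose, BTG2, BBC3, TNFRSF10B and PMAIP1 by most, and the 2 falls, of CCNG2 and MDM2, were both lost in a fit of the shMLKL libraries only and without the second DMSO library or the first TBZ library; 1 was lost without any 1 of the other libraries.

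Heat shock and sterol genes rose in part, at 52.9% and 50% of those tested, against 20% of all tested genes. The shares that fell were 5.88% and 14.3%, against 17.6% of all tested genes. Among 17 heat shock genes 9 rose and 1 fell, with DNAJB4 listed at 0 in DMSO cells; without it 8 of 16 rose. The fall, of HSPB1, was lost without the second DMSO library or the second TBZ library and in a fit of the shMLKL libraries only. The falls numbered 3 without either shGFP DMSO library and 4 with library medians set equal or with quantile normalization. DNAJA1, a co-chaperone of HSP70, had 152 and 146 FPKM in TBZ cells and 69.0 and 67.2 FPKM in DMSO cells (log2 change 1.12). Of 28 genes of cholesterol synthesis and uptake 14 rose and 4 fell, the falls being 2 without the first DMSO library or the first TBZ library. INSIG1, which retains the sterol sensor SCAP in the endoplasmic reticulum, had 12.97 and 13.9 FPKM in TBZ cells and 5.32 and 5.32 FPKM in DMSO cells (log2 change 1.19). INSIG2, its relative, fell to 10.9 and 10.1 FPKM in TBZ cells, against 18.4 and 18.2 FPKM in DMSO cells (log2 change −0.75). Outside these lists CYP1B1, a cytochrome P450 and a target of the aryl hydrocarbon receptor, had 28.6 and 31.0 FPKM in TBZ cells and 2.60 and 2.32 FPKM in DMSO cells, a log2 change of 3.16 ± 0.06 (adjusted p = 6.6e-08).

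The 5 largest falls, genes listed at 0 and genes under 5 FPKM aside, were those of DKK1, FGF19, SLITRK6, TNS4 and BMP4. In bulk RNA, fewer cells of a type and less RNA per cell cannot be told apart. DKK1, a secreted WNT inhibitor (hg19 chr10:54074041-54077417, plus strand), had 1.41 and 1.52 FPKM in TBZ cells and 27.0 and 25.8 FPKM in DMSO cells, a log2 change of −3.48 ± 0.07 (adjusted p = 6.1e-08). FGF19, an endocrine FGF (hg19 chr11:69513006-69519106, minus strand), had 1.82 and 1.81 FPKM in TBZ cells and 14.2 and 13.2 FPKM in DMSO cells, a log2 change of −2.39 ± 0.12 (adjusted p = 7.4e-06). BMP4 (hg19 chr14:54416455-54423554, minus strand) had 6.05 and 6.59 FPKM in TBZ cells and 34.2 and 32.2 FPKM in DMSO cells, a log2 change of −2.22 ± 0.06 (adjusted p = 4.2e-07). In all 3 both TBZ libraries lay well under both DMSO libraries. ID1, a transcriptional target of BMP signalling, fell to 14.7 and 14.9 FPKM in TBZ cells, against 53.8 and 46.5 FPKM in DMSO cells, and SMAD6, an inhibitor of that pathway, to 3.38 and 2.90 FPKM in TBZ cells, against 5.56 and 5.04 FPKM in DMSO cells. Of 13 tested BMP and FGF genes 5 fell and 2 rose (38.5% and 15.4%, against 17.6% and 20% of all tested genes). Fewer rises were called without the first DMSO library or the first TBZ library. Of 14 tested WNT feedback and stem cell genes 6 fell and 2 rose (42.9% and 14.3%, median log2 change −0.23). Fewer rises were called without the first DMSO library. RNF43, a ubiquitin ligase that removes WNT receptors, fell to 5.40 and 4.85 FPKM in TBZ cells, against 17.3 and 17.0 FPKM in DMSO cells (log2 change −1.57). AXIN2 and MYC fell to 0.887 and 1.02 FPKM and 26.9 and 26.3 FPKM in TBZ cells, against 2.18 and 2.02 FPKM and 41.4 and 40.8 FPKM in DMSO cells (log2 changes −0.67 and −0.61). CTNNB1, which encodes β-catenin, rose to 77.5 and 79.6 FPKM in TBZ cells, against 64.8 and 65.9 FPKM in DMSO cells (log2 change 0.26).

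Further genes among the largest falls code for surface, adhesion and metabolic proteins. SLITRK6, a transmembrane protein, had 0.399 and 0.305 FPKM in TBZ cells and 5.81 and 5.23 FPKM in DMSO cells (log2 change −2.27). TNS4, a focal adhesion protein, had 2.31 and 2.07 FPKM in TBZ cells and 15.2 and 13.2 FPKM in DMSO cells (log2 change −2.25), and AMIGO2, an adhesion molecule, had 18.5 and 16.3 FPKM in TBZ cells and 62.8 and 64.1 FPKM in DMSO cells (log2 change −1.81). PADI1, a peptidylarginine deiminase, DHRS9, a short-chain dehydrogenase, and B3GALT5, a galactosyltransferase, had log2 changes of −1.80, −1.70 and −1.61. AKAP12, a scaffold of protein kinase A, had 2.43 and 2.16 FPKM in TBZ cells and 8.10 and 10.9 FPKM in DMSO cells (log2 change −1.66). Groups that do not overlap were a condition for naming these genes, so their separation was set by the choice.

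Colonic differentiation genes fell more often than they rose. Of 20 tested, 12 fell, 1 rose and 7 did not pass the test, against 17.6% lower over all tested genes, and the median log2 change was −0.28; another 15 lay below the filter. SPDEF, a transcription factor of goblet cells, had 1.36 and 1.34 FPKM in TBZ cells and 3.77 and 3.78 FPKM in DMSO cells (log2 change −1.02). HNF4A, a transcription factor of the gut epithelium, had 2.09 and 1.74 FPKM in TBZ cells and 3.71 and 3.32 FPKM in DMSO cells (log2 change −0.63), and HES1, a Notch target, had 7.65 and 7.94 FPKM in TBZ cells and 13.6 and 10.9 FPKM in DMSO cells (log2 change −0.58). The gel-forming mucin MUC5AC was the member that rose, to 7.13 and 6.85 FPKM in TBZ cells against 2.95 and 3.34 FPKM in DMSO cells (log2 change 0.95). Of the 10 epithelial markers tested 6 fell and none rose; the part of these markers in the result was not tested. The TRIM28 corepressor and heterochromatin list had 10 falls and 2 rises among 21, but 4 falls without the first DMSO library, 6 without the first TBZ library and 6 in a fit of the shMLKL libraries only, and the rises numbered 1 without the second DMSO library or the first TBZ library. DNMT3A, a DNA methyltransferase, fell to 0.546 and 0.356 FPKM in TBZ cells, against 1.35 and 1.19 FPKM in DMSO cells (log2 change −0.65).

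Proliferation and metabolism genes had both rises and falls. For replication genes the shares that rose and fell, 16.7% and 8.33%, were below the 20% and 17.6% of all tested genes. Of 36 mitotic genes 12 fell (33.3%, against 17.6% of all tested genes) and 4 rose, with a median log2 change of −0.07; CDC25C is one of the 12 and was listed at 0 in both TBZ libraries and at 3.57 and 3.55 FPKM under DMSO. The mitotic kinase PLK1 fell to 12.7 and 11.9 FPKM in TBZ cells, against 20.6 and 19.8 FPKM in DMSO cells, and the spindle factor TPX2 to 42.6 and 42.5 FPKM in TBZ cells, against 56.7 and 58.4 FPKM in DMSO cells (log2 changes −0.67 and −0.43). NUSAP1, another spindle protein, rose to 61.9 and 60.4 FPKM in TBZ cells, against 45.1 and 45.3 FPKM in DMSO cells. Of 36 replication genes 6 rose and 3 fell; the rises were 3 without the first DMSO library and 2 without the second TBZ library, and the falls were 1 without either DMSO library or the first TBZ library. PCNA, the polymerase clamp, rose to 60.1 and 64.2 FPKM in TBZ cells, against 48.9 and 44.9 FPKM in DMSO cells (log2 change 0.40). Of 26 hypoxia and glycolysis genes 5 fell and 4 rose (19.2% and 15.4%, shares near the 17.6% and 20% of all tested genes), the rises being 2 without the second DMSO library or the second TBZ library. SLC2A1, the glucose transporter GLUT1, fell to 31.9 and 32.0 FPKM in TBZ cells, against 77.8 and 75.0 FPKM in DMSO cells, a log2 change of −1.23 ± 0.04 (adjusted p = 1.3e-06). Of 27 ESCRT-III and membrane repair genes, which counter MLKL pores, 5 rose and 3 fell (18.5% and 11.1%, against 20% and 17.6% of all tested genes), the falls being 1 without the second TBZ library, and 7 or 8 with library medians set equal or quantile normalization. No cytosolic ribosomal protein gene of 54 was called by limma, and 1 was called without the first or the second TBZ library; 2 had an unadjusted p under 0.05, against 46.9% of all tested genes, and their log2 changes lay between −0.10 and 0.17.

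The response of shMLKL cells differed from that of shGFP cells, in which MLKL was higher. Between these groups MLKL level, hairpin and line changed together, so their parts cannot be told apart and were not tested. The difference of TBZ effects (shMLKL minus shGFP, on the log2 scale) was called for 2306 of the 10364 genes (22.3%), 1512 of them positive and 794 negative. That count fell to 1314 and 1452 without the first and second shGFP DMSO library, to 1466 and 1417 without the first and second shGFP TBZ library, and to 1478 without the second shMLKL DMSO library. Of the 218 genes that rose by at least 1 in shMLKL cells, the difference was negative for 78 and positive for 51; of the 78 that fell by at least 1, it was negative for 20 and positive for 14. Of the 27 immediate early genes the difference was negative for 23 and positive for none. JUN, for which shMLKL cells had 103 and 101 FPKM under TBZ and 36.9 and 35.7 FPKM under DMSO, had 162 and 154 FPKM under TBZ and 11.0 and 12.5 FPKM under DMSO in shGFP cells, a difference of effects of −2.17 ± 0.08 SE (adjusted p = 6.8e-06). DUSP1 had 63.0 and 59.6 FPKM under TBZ and 2.86 and 3.43 FPKM under DMSO in shGFP cells, and its difference was −3.34 ± 0.11 (adjusted p = 4.8e-06). In both genes the shGFP libraries under TBZ lay above the shMLKL libraries under TBZ. The most negative differences also included GEM, a small GTPase induced by mitogens (−3.43), RHOB, a stress-induced small GTPase (−3.20), AKAP12 (−3.12) and CXCL8 (−2.98).

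**Figure D4:**
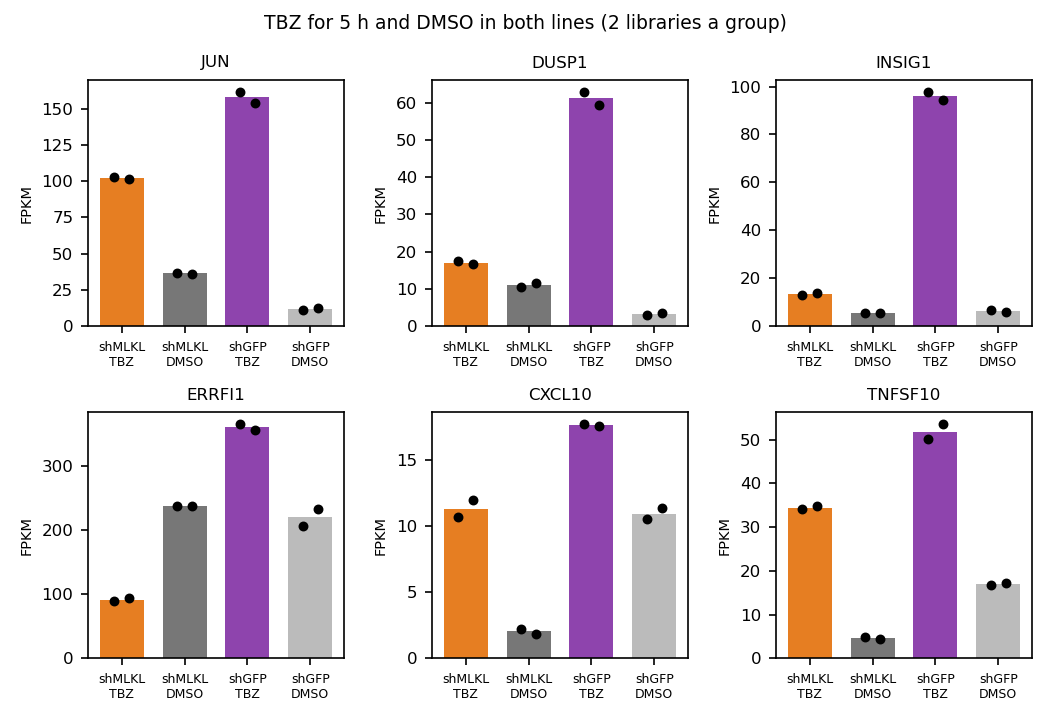
FPKM of 6 genes in each of the 8 libraries, by group, on linear axes that start at 0; points are single libraries and bars the mean of 2. All 6 are highest in shGFP cells under TBZ; shMLKL cells under DMSO lie above shGFP cells under DMSO for JUN and DUSP1 and below them for CXCL10 and TNFSF10, and ERRFI1 is lower with TBZ in shMLKL cells and higher with TBZ in shGFP cells.

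ERRFI1 and AKAP12 went in opposite directions in the 2 lines. ERRFI1, which fell in shMLKL cells, had 366 and 356 FPKM under TBZ and 207 and 233 FPKM under DMSO in shGFP cells, a log2 change of 0.71 there (adjusted p = 3.1e-05) and a difference of −2.08 ± 0.08 (adjusted p = 6.8e-06). AKAP12, likewise lower with TBZ in shMLKL cells, had 5.04 and 5.40 FPKM under TBZ and 1.07 and 1.46 FPKM under DMSO in shGFP cells, a log2 change of 1.46 (adjusted p = 9.3e-05). INSIG1 rose in both, but its log2 change of 1.19 in shMLKL cells was set against 3.76 in shGFP cells. Of the 28 sterol genes 11 had a negative difference, against 794 of all 10364 tested genes. DKK1 fell further in shMLKL cells than in shGFP cells, where it had 2.14 and 2.19 FPKM under TBZ and 5.76 and 6.33 FPKM under DMSO (difference −2.33, adjusted p = 7.4e-06).

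Interferon-stimulated and mitotic genes had mostly positive differences. Of the 47 interferon-stimulated genes the difference was positive for 26 and negative for 5. Over all 10364 tested genes it was positive for 1512 and negative for 794. A positive difference compares the changes and does not by itself place the level under TBZ higher in shMLKL cells. CXCL10 had 17.7 and 17.5 FPKM under TBZ and 10.5 and 11.3 FPKM under DMSO in shGFP cells, a log2 change of 0.64 there, against 2.02 in shMLKL cells, and a difference of 1.38 ± 0.11 (adjusted p = 0.00022). IFIT1, an interferon-induced RNA-binding protein, had 11.7 and 12.2 FPKM under TBZ and 8.87 and 8.96 FPKM under DMSO in shMLKL cells, and 10.8 and 8.18 FPKM under TBZ and 20.5 and 18.6 FPKM under DMSO in shGFP cells (difference 1.36, adjusted p = 0.00117); the rise in shMLKL cells (adjusted p = 0.0275) was lost without any 1 of the 4 shMLKL libraries (adjusted p = 0.0728, 0.12, 0.105 and 0.0928) and with no filter on low values (adjusted p = 0.0635). TNFSF10 had 50.1 and 53.6 FPKM under TBZ and 16.8 and 17.2 FPKM under DMSO in shGFP cells (difference 1.10, adjusted p = 0.00016), and CYP1B1 had 35.7 and 36.1 FPKM under TBZ and 8.98 and 9.45 FPKM under DMSO (difference 1.30, adjusted p = 8.4e-05). Of the 36 mitotic genes the difference was positive for 29, and PLK1, with 13.5 and 13.8 FPKM under TBZ and 28.4 and 28.9 FPKM under DMSO in shGFP cells, had a log2 change of −1.02 there against −0.67 in shMLKL cells. For NFKB2 the difference was 0.03 ± 0.06 SE (adjusted p = 0.74) and for BIRC3 0.23 ± 0.08 (adjusted p = 0.0654), and neither passed the test. Of the 12 NF-κB subunits and IκB proteins, however, the difference was negative for 4 and positive for none. Their median log2 change was 1.83 in shMLKL cells and 2.22 in shGFP cells.

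**Figure D5:**
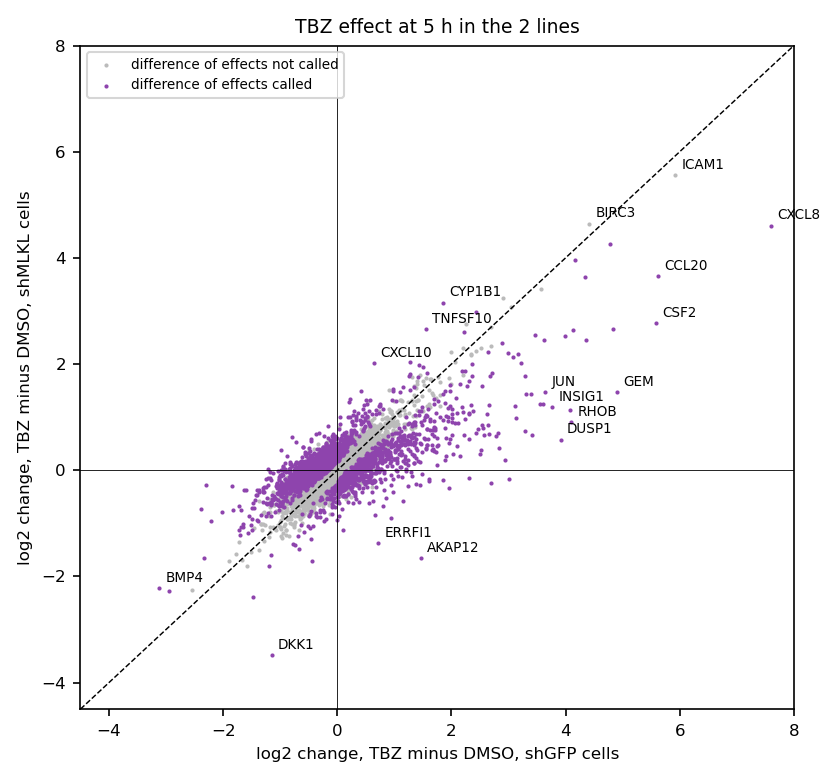
Log2 change with TBZ in shMLKL cells (vertical axis) against that in shGFP cells (horizontal axis) for every tested gene not listed at 0 in a library; the diagonal marks equal effects. Purple points had a called difference of effects, grey points did not; CXCL8, DUSP1, RHOB and GEM lie below the diagonal and CXCL10, TNFSF10 and CYP1B1 above it.

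At 12 h the earlier experiment had 1 shMLKL library under TBZ and 1 under DMSO, so its values have no replicate check, and the time differs. Of the tested genes 9004 had a value above 0 in both of its libraries; 6.39% were higher by at least 1 on the log2 scale and 6.8% lower. Of the 181 genes that rose by at least 1 at 5 h and could be read at 12 h, 102 were higher by at least 1 there (56.4%) and 0 were lower by that much; the 102 are 17.7% of the genes higher at 12 h. Of the 67 that fell by at least 1 at 5 h and could be read, 25 were lower by at least 1 (37.3%, and 4.08% of the genes lower at 12 h) and 3 were higher. ICAM1 had 44.7 FPKM at 12 h and 4.09 FPKM under DMSO, NFKBIA 145 FPKM and 18.5 FPKM, and NFKB2 112 FPKM and 12.3 FPKM. CXCL10 had 446 FPKM at 12 h and 1.80 FPKM under DMSO, TNFSF10 216 FPKM and 14.9 FPKM, and IRF1 102 FPKM and 17.6 FPKM. These 6 genes were higher in the TBZ library of both experiments. SLITRK6 had 0.562 FPKM at 12 h and 9.09 FPKM under DMSO, FGF19 7.51 FPKM and 35.6 FPKM, and AMIGO2 10.6 FPKM and 60.4 FPKM, all lower in the TBZ library. DKK1, by contrast, had 4.18 FPKM at 12 h and 4.24 FPKM under DMSO, and CYP1B1 7.39 FPKM and 8.57 FPKM. BCL2L1 had 86.1 FPKM at 12 h and 55.9 FPKM under DMSO, and ERRFI1 85.8 FPKM and 61.7 FPKM, both of them genes that fell at 5 h.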

How the data were processed

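Poly-A selected RNA was sequenced as paired-end reads from stranded libraries, per the labels' protocols. The authors deposited 1 table of gene values for the 8 libraries of both lines; its header names no unit, and the values were read as FPKM because of their size and because Cufflinks 2.2.1 is among the tools in the submitters' processing notes. The same notes name STAR 2.4.0f1, TopHat2 2.0.13, GATK and the build hg19. For the earlier experiment the authors deposited Cufflinks transcript lists, from which the FPKM of RefSeq transcripts were summed per gene. No counts were at hand, so depth is known only in relative terms, from the commonest ratio of values at or under 0.15 FPKM.

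The table held 29437 lines and 19128 symbols; for the 384 symbols on more than 1 line, that with the highest mean over the 8 libraries was used. The 10364 genes that averaged 1 FPKM or more in 1 or more of the 4 groups were fitted as log2(FPKM + 1). The fit was made in limma 3.58.1 (R 4.3.3) over all 8 libraries, with 1 mean per group and a trended empirical Bayes spread (residual degrees of freedom 4, prior 3.46). P-values were adjusted over all genes by the Benjamini-Hochberg method and called at 0.05, two-sided. Fold changes on this scale understate those of low genes. On simulated data with 200 changed genes among 10364 the fit recovered 69.4% of changes of 0.5, 94.9% of 1, 93.7% of −1 and 98.6% of 2. False calls averaged 8.1 over 20 runs. The simulated noise was independent and normal, with the spread between libraries. In the data far more genes were called, 2070 higher and 1821 lower, so these rates need not carry over.

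Alternatives were a pseudocount of 0.1, no filter, a filter on the 2 shMLKL groups, library medians set equal, quantile normalization, the sum over distinct lines, the 4 shMLKL libraries only, no trend, the replicate number as a block, and leaving out each of the 8 libraries; leaving out genes listed at 0 was added after the data were seen. A fit with 1 library left in a group assumes that it varies like the other groups. The gene lists, the markers and the members were chosen with earlier results of these data known. Genes named are MLKL, 10 core pathway genes, the 15 largest called rises and falls with at least 5 FPKM and groups that do not overlap, up to 4 called rises and 4 falls of each list, and the 6 most positive and 6 most negative differences of effects, not all of which appear in the text; genes of the other observations, and list members named because their call was lost under an alternative, were chosen after their values were seen. Promoter sequences are those of RefSeq (GRCh38.p14).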

Additional observations from a re-analysis of the deposited data

Results flagged for a closer look

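What set these results apart is a called difference between the TBZ effects in shMLKL and in shGFP cells, tested as an interaction in limma; no group had the 4 libraries needed to look for a single deviating library. It was called for 2306 genes. All values below are differences on the log2 scale, shMLKL minus shGFP, with 2 libraries in each of the 4 groups.

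Among immediate early and mitogen-induced genes the difference was negative: −1.89 for EGR1, −1.51 for FOSL1, −2.17 for JUN, −1.21 for BTG2, −1.19 for MAFK, −3.43 for GEM, −3.20 for RHOB, −3.34 for DUSP1, −0.78 for DUSP10, −0.67 for DUSP4 and −3.12 for AKAP12. In the EGF receptor system it was −2.08 for ERRFI1, −0.71 for EGFR and 0.63 for ERBB3. Inflammatory mediators and surface genes had −2.98 for CXCL8, −2.18 for CXCL1, −1.49 for CXCL2, −1.95 for CCL20, −2.82 for CSF2, −0.79 for IL1RN, −0.94 for SDC4, −0.88 for F3, −0.70 for PVR and −0.49 for CD83. The TNF and NF-κB group had −0.70 for SOD2, −0.20 for NFKBIA, −0.52 for TNFAIP3, 0.38 for TNIP1 and 0.54 for IRAK2. MLKL itself had 0.66 and was lower under TBZ than under DMSO in shGFP cells.

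Interferon-linked genes had 1.38 for CXCL10, 1.36 for IFIT1, 0.35 for IFIH1, 1.10 for TNFSF10 and −1.46 for GBP1, the last with the opposite sign. Death regulators had −0.59 for BBC3, −1.26 for PMAIP1, −0.58 for BCL2L1, 0.31 for CASP2, −0.60 for CFLAR and 0.55 for FADD. Stress and metabolic genes had −1.69 for PPP1R15A, −0.46 for ERN1, −0.26 for TRIB3, −0.63 for SQSTM1, −0.89 for TXNRD1, −0.40 for FTH1, −0.31 for DNAJA1, −2.57 for INSIG1, −0.55 for SLC2A1 and 1.30 for CYP1B1.

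Developmental and differentiation genes had −2.33 for DKK1, −0.90 for FGF19, 0.90 for BMP4, 1.06 for AXIN2, 0.22 for MYC, −0.52 for CTNNB1, 0.48 for KLF13, 0.53 for HNF4A and −0.90 for MUC5AC. The remaining large falls had 0.68 for SLITRK6, −0.61 for AMIGO2, −1.25 for DHRS9 and −0.44 for B3GALT5, and cell cycle genes had 0.34 for PLK1, 0.41 for TPX2, 0.36 for NUSAP1 and 0.54 for PCNA.

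The call of a difference was lost on leaving out 1 or more single libraries for 13 of these genes, and the highest adjusted p so reached is given with its library. This held for B3GALT5 (0.0781 without the second shMLKL DMSO library), for CASP2 (0.0843 without the second shGFP DMSO library), for CD83 (0.102 without the first shGFP DMSO library), for ERN1 (0.0578 without the first shGFP DMSO library), for FADD (0.101 without the second shGFP DMSO library), for HNF4A (0.0696 without the first shGFP DMSO library). It also held for IFIH1 (0.0902 without the second shGFP TBZ library), for MLKL (0.0503 without the first shGFP DMSO library), for MYC (0.0515 without the second shGFP TBZ library), for NFKBIA (0.123 without the first shGFP DMSO library), for TNFAIP3 (0.114 without the first shGFP TBZ library), for TNIP1 (0.051 without the second shGFP DMSO library) and for TRIB3 (0.0785 without the second shGFP TBZ library).

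Other alternatives also ended calls of a difference. With a pseudocount of 0.1 the difference was −0.42 for FGF19 (adjusted p = 0.388), −0.04 for B3GALT5 (adjusted p = 0.883), 0.57 for SLITRK6 (adjusted p = 0.103), −0.38 for TNFAIP3 (adjusted p = 0.373), −0.15 for NFKBIA (adjusted p = 0.128), 0.79 for MLKL (adjusted p = 0.0905) and 0.62, of opposite sign, for CD83 (adjusted p = 0.223). For 3 genes the call held at a value over 1.5 times larger or smaller, namely DUSP10 (−1.52), AXIN2 (1.59) and GBP1 (−0.80). Under quantile normalization the difference was −0.04 for FTH1 (adjusted p = 0.78), 0.30 for IFIH1 (adjusted p = 0.055) and −0.17 for TRIB3 (adjusted p = 0.0943). For FTH1 that method gave a change of 0 in shMLKL cells, as it does for any unchanged rank, which limits this value. With library medians set equal it was 0.22 for CASP2 (adjusted p = 0.0981), 0.45 for FADD (adjusted p = 0.057), 0.26 for IFIH1 (adjusted p = 0.0926) and 0.13 for MYC (adjusted p = 0.114). With no filter on low values the calls of CD83, FADD, IFIH1, NFKBIA, TNFAIP3 and TRIB3 were lost, and with no trend those of IFIH1, NFKBIA, TNFAIP3 and TRIB3.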

How the results depend on the processing

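Each result was recomputed under the alternatives named above, changing one choice at a time. The count of genes that rose (2070) stayed between 1573 and 2077 and that of genes that fell (1821) between 1273 and 2141, and no gene called in both fits changed sign. With library medians set equal the counts were 1809 and 2141 and with quantile normalization 1813 and 2046. With the replicate block, the paired fit, they were 1970 and 1744, and 2062 differences of effects were called; residuals of libraries with the same number did not correlate (−0.06 for the shMLKL pairs), so the numbers mark no known pairing. The count of differences of effects (2306) was between 1314 and 1690 on leaving out 1 library, and between 1787 and 2313 under the other alternatives. The difference for CD83 turned to 0.62 with a pseudocount of 0.1 (adjusted p = 0.223); the cause was not tested. Of the 179 gene results checked, 27 others changed their side of the threshold under some alternative. Among them was the fall of FTH1, which was 0 under quantile normalization, where an unchanged rank gives an unchanged value. No gene result did so when lines were summed, when the filter was set on the shMLKL groups or when genes listed at 0 were left out. Of 58 list counts 24 moved by over 1.5 times under some alternative, all of them counts of at most 10 genes. Beside those given with the lists, falls numbered 2 for cholesterol genes and 1 for immediate early genes and for death receptors both with no filter and with the shMLKL libraries only. With no filter they were also 1 for the TNF receptor complex and 2 for the BCL2 family; with the shMLKL libraries only they were 1 for replication and for surface genes, and 1 BMP or FGF gene and 1 TRIM28 list gene rose. With no trend, falls numbered 1 for surface genes, death receptors and p53 genes; with quantile normalization 1 TRIM28 list gene and 1 ribosomal protein gene rose. With the replicate block, falls numbered 1 for chemokines and 2 for heat shock genes, 1 ribosomal protein gene rose, and the fall of LGALS3BP (adjusted p = 0.0558) and the differences for CD83 and NFKBIA lost their calls (adjusted p = 0.0519 and 0.0673). Each group had 2 libraries, the depth in reads is unknown and 5 h is the only time with replicates, which limits the precision of every value.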

Other observations

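Some further values bear on how the shMLKL libraries read. The epithelial markers KRT19 and LGALS4 stood at 104 and 102 FPKM and at 137 and 132 FPKM in TBZ cells, against 184 and 185 FPKM and 161 and 164 FPKM in DMSO cells. KRT20, a keratin of differentiated colonic cells, stood at 188 and 188 FPKM in shMLKL cells under TBZ and at 229 and 234 FPKM in shMLKL cells under DMSO, whereas shGFP cells had 209 and 209 FPKM under TBZ and 86.1 and 89.3 FPKM under DMSO. The genes that rose by at least 1 spanned a median of 19.7 kb in hg19, those that fell by at least 1 spanned 20.1 kb and all tested genes 28.5 kb. In the earlier experiment 1257 of the tested genes were listed at 0 in 1 or both shMLKL libraries, among them BIRC3 and SOD2 under DMSO, and were left out of the values at 12 h.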
